A study of Mus musculus with 232 samples.

Results

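Mouse embryonic stem cells (ESCs) without Dgcr8, an RNA-binding partner of the nuclease Drosha, make almost no microRNAs. The cells described here were 60 such Dgcr8-/- ESCs that had been mock-transfected, beside 122 other single cells in the series. They were divided into groups chosen by their measured level of Cdkn1a mRNA. For every cell, the count of Cdkn1a was scaled to counts per 1000000 (CPM) of the total of that cell, and cells above the median of the 60 were called high and the others low, which gave 30 cells in either group. Cdkn1a therefore differed between the groups by construction, and it was left out of the test of all other genes.

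The other conditions were 48 Dgcr8-/- cells transfected with a let-7 mimic, 58 Dgcr8-/- cells transfected with a miR-294 mimic and 16 wild-type (WT) cells. The let-7 mimic is named let-7i in the sample titles, let-7b in the series text and let-7c in the paper. All cells were grown in serum with LIF and the 2i inhibitors PD0325901 and CHIR99021, and the transfected cells were captured on a Fluidigm C1 microfluidic circuit 24 h after transfection. Each condition had a single circuit of its own, the mock cells included. No source names more than a single culture, so p-values measure the spread between these cells only and not between cultures.

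Cdkn1a encodes p21, a protein that binds and inhibits the cyclin-dependent kinases which drive cells from G1 into S phase. Its gene is a classical target of the transcription factor p53, and p21 can arrest the cell cycle after DNA damage. In ESCs the mRNA is also repressed by the miR-290 cluster, to which miR-294 belongs, and this repression is missing in mock Dgcr8-/- cells.

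The sequences below set miR-294 beside the matches to its seed in Cdkn1a. They are the mature microRNA from RefSeq, with its seed (bases 2 to 8) in capitals, and the 2 places in the 3′ untranslated region (UTR) of the Cdkn1a transcript that match this seed in full, with the matching bases in capitals.
mmu-miR-294-3p: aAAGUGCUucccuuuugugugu
Cdkn1a first match: tcctcagacctgaatAGCACTTtggaaaaa
Cdkn1a second match: taccgtgggtgtcaaAGCACTTagtgggtc
The microRNA lies at chr7:3220691-3220712 on the plus strand of GRCm38. Both matches lie in exon 3 of Cdkn1a on the plus strand of GRCm38, the first at chr17:29099813-29099842 and the second at chr17:29100485-29100514, and the UTR has 1329 bases. A match describes the sequence only.

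In mock cells Cdkn1a ranged from 0 to 1204 CPM with a median of 145 CPM. No gap separated the groups at the median: the highest low cell had 143 CPM (Mock_5, 258 counts) and the lowest high cell 146 CPM (Mock_32, 160 counts). The low cells had a median of 69.7 CPM, and 2 of them, Mock_35 and Mock_84, had no Cdkn1a count at all. The high cells had a median of 274 CPM, and the highest, Mock_7, stood well above the next, at 1204 against 622 CPM. In the other conditions the median was 155 CPM in let-7 cells, 24.4 CPM in miR-294 cells and 28.98 CPM in WT cells. Of the miR-294 cells 3, and of the WT cells 0, exceeded the median of the mock cells, as did 27 of the 48 let-7 cells. These levels describe the groups, since Cdkn1a was chosen for its spread.

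**Figure D1:**
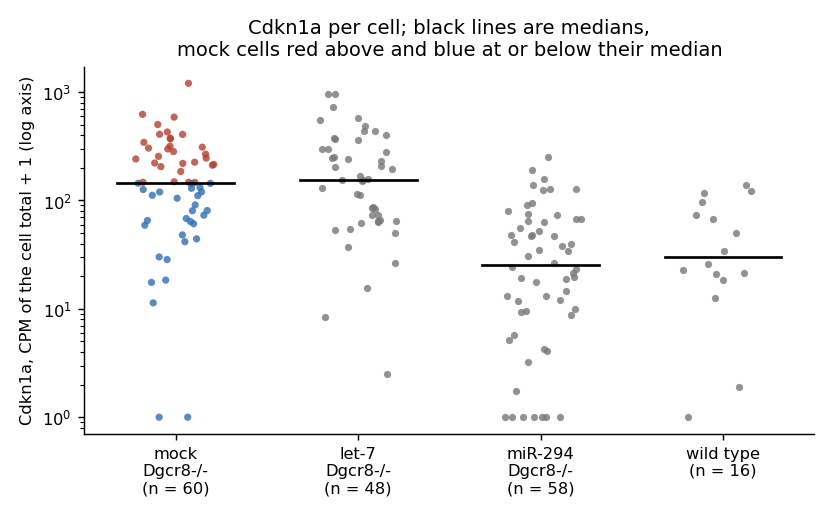
Cdkn1a in each cell, as CPM of the cell total plus 1 on a log axis, for the 60 mock, 48 let-7 and 58 miR-294 Dgcr8-/- cells and the 16 WT cells. Each point is 1 cell and black lines are medians. The mock cells run from 0 to 1204 CPM without a gap at their median of 145 CPM.

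Depth and library quality were compared first. The total count per mock cell ranged from 514728 to 3564131. It averaged 1841458 ± 827185 (SD, n = 30) in high and 1646276 ± 749777 (SD, n = 30) in low cells (two-sided permutation test, adjusted p = 0.688). Genes detected after thinning every cell to 514728 counts averaged 7070 ± 871 and 7147 ± 728 (adjusted p = 0.925), and the 100 highest genes took 28.3 ± 1.9% and 28.4 ± 2.1% of the counts (adjusted p = 0.925). A second sequencing run had been made of 11 high and 12 low cells (Fisher's exact test, two-sided, p = 1.0). Dgcr8 itself was counted in 54 of the mock cells, and counts over the whole gene do not test a deletion of part of it.

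A group of 3 cells stood apart from the other mock cells. Over all genes tested, the correlation of log2(CPM + 1) with the median of the 60 cells was 0.552 for Mock_3, 0.577 for Mock_96 and 0.644 for Mock_35, and 0.674 or more for the rest. Mock_3, a high cell with 375 CPM of Cdkn1a, had only 0.00602% of its counts from the mitochondrial genome. The low cells Mock_96 and Mock_35 had the highest such shares of all mock cells, at 11.6% and 15.8%. For some named results that moved when these cells were left out, the value without them is also given.

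The comparison asked which genes varied with Cdkn1a between cells of the same genotype and treatment. Of 11185 genes tested, 10 passed the threshold (edgeR's quasi-likelihood test, Benjamini-Hochberg adjusted p below 0.1). Of these, 5 were higher (0.0447% of the genes tested) and 5 lower (0.0447%) in high cells. At an unadjusted p below 0.05, 482 genes were higher (4.31%) and 515 lower (4.6%), and the median log2 fold change of all genes was 0.02. Among the called genes, 6 were counted in fewer than 30 of the 60 cells, and 3 of those higher had the same counts in every cell, so that the 10 genes stand for 8 separate signals.

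Ckb was the single called gene with counts in all 60 cells and a high level. It encodes the brain-type creatine kinase, which transfers phosphate between ATP and creatine, and lies at chr12:111669361-111672338. In high cells Ckb ranged from 226 to 7118 CPM (scaled by TMM factors, as are all gene levels below) with a median of 1872, and in low cells from 410 to 2545 with a median of 1058. The groups overlapped, but 8 high cells exceeded every low cell and only 3 low cells exceeded the median of the high cells. The log2 fold change was 0.94 (SE 0.22, adjusted p = 0.0515). The highest values were in Mock_57 with 7118 and in Mock_7 with 5397 CPM. Ckb passed in 57 of the 60 fits that left out 1 cell and lost its call without Mock_57 (adjusted p = 0.155), Mock_10 (0.125) or Mock_7 (0.124).

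The processed pseudogenes Gm7336 on chromosome 7, Gm10359 on chromosome 5 and Gm12671 on chromosome 4, were higher in high cells and had identical values in every cell. Their reads cannot be told apart in these counts, so they stand for the same signal. High cells ranged from 0 to 2159 CPM with a median of 1.85, and low cells from 0 to 13.9 with a median of 0. The log2 fold change was 6.66 (SE 1.48, adjusted p = 0.0335). Of all counts, 68.5% came from Mock_57 and Mock_7, the same pair that had the highest Ckb, but 10 high cells exceeded the highest low cell. Zdhhc7, which encodes a palmitoyltransferase of the Golgi (chr8:120080890-120101482), had counts in 8 high cells with a highest value of 165 CPM, and in no low cell. It was at least 333-fold higher in high cells, with 3 counts over the low group as the floor (adjusted p = 0.0335).

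Of the genes lower in high cells, 2 were counted in most cells and the others were sparse. Zfp935, a member of the large family of KRAB-type zinc finger genes (chr13:62453715-62558511), was counted in 28 high and 29 low cells. It ranged from 0 to 83.8 CPM with a median of 2.58 in high cells and from 0 to 404 with a median of 29.7 in low cells. All but 1 of the low cells exceeded the median of the high cells, and the log2 fold change was -2.31 (SE 0.54, adjusted p = 0.0515). Without Mock_80, the low cell with the highest value, the adjusted p was 0.164. Related zinc finger genes may share reads.

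Endov, which encodes an endonuclease that cleaves inosine-containing RNA (chr11:119491347-119511437), ranged from 0 to 4.85 CPM in high cells with a median of 0.544, and from 0 to 85.4 in low cells with a median of 1.84. Of the low cells, 7 exceeded every high cell, and the log2 fold change was -3.48 (SE 0.74, adjusted p = 0.0335). Susd1, a membrane protein gene with sushi domains, was counted in 3 high and 13 low cells, and its log2 fold change was -6.38 (SE 1.40, adjusted p = 0.0335). It had 3 counts over all high cells and 578 over the low cells, and 51.1% of all its counts lay in the 2 cells with the highest levels. The ratio was 214, with a 95% exact counting interval of 72.8 to 1039 in which reads and not cells are the units. Dpp6, which encodes a subunit that modulates potassium channels, was counted in 9 low cells with a highest value of 65.6 CPM and in no high cell, and was at least 98.4-fold lower in high cells (adjusted p = 0.0335). The last of the called genes, Gm37105, was counted in 29 high and 30 low cells and had a log2 fold change of -2.15 (SE 0.51, adjusted p = 0.0607). Mock_96 held 40% of its counts, at 442 CPM against 43.8 in the next cell, and without that cell the adjusted p was 0.513. Without the 3 cells that stood apart its log2 fold change was -0.89.

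Among the next genes by p, Cox6a1 and Zfp976 had counts in all 60 cells. Cox6a1, a nuclear-encoded subunit of cytochrome c oxidase, ranged from 180 to 1743 CPM in high cells (median 542) and from 108 to 823 in low cells (median 310). Its log2 fold change of 0.75 (SE 0.21) did not pass the threshold (adjusted p = 0.165). Zfp976 had medians of 12.7 CPM in high and 34.2 CPM in low cells and a log2 fold change of -1.60 (adjusted p = 0.165). Smox, Sh3tc1, Emilin1, Pde8b, Afap1l2 and Gm13039 above 0, and Atp13a2, Lancl2, Oxr1, Taf9b, Pirb and Zfp119b below 0, had adjusted p between 0.102 and 0.165. Oxr1, with a log2 fold change of -3.39, passed without the 3 cells that stood apart (log2 fold change -4.20, adjusted p = 0.0308). Pirb had its highest value, 152 CPM against 15.6 in the next cell, in Mock_96, and its log2 fold change of -2.33 was -0.41 without the 3 cells that stood apart.

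**Figure D2:**
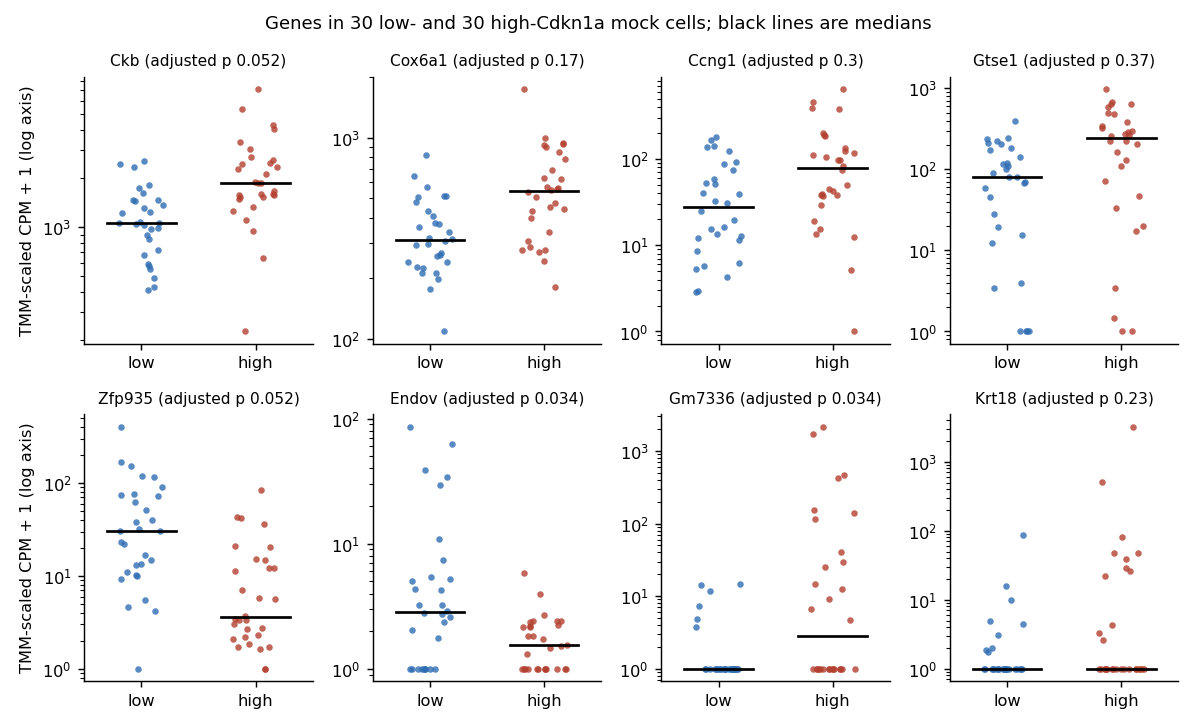
Levels of 8 genes in the 30 low and 30 high mock cells, as TMM-scaled CPM plus 1 on log axes that differ between panels. Each point is 1 cell, black lines are medians, and the adjusted p of edgeR's test stands over each panel. Ckb had medians of 1872 CPM in high and 1058 CPM in low cells with overlapping ranges, whereas Gm7336 and Krt18 were at 0 in many cells of both groups.

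The p53 pathway was examined because p53 transcribes Cdkn1a. None of the 31 tested members of a list of p53 pathway genes and p53 targets passed the threshold, and none did with DESeq2. At an unadjusted p below 0.05, 5 were higher (against 4.31% of all genes) and 0 lower. Of the 31, 27 had a log2 fold change above 0, against 51.1% of all genes, and their median was 0.53 against 0.02 for all genes. Without the 3 cells that stood apart, 27 of 31 were again above 0 with a median of 0.57. The list was chosen with earlier results of these data known, and these counts describe it without a test.

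The p53 target Ccng1, which encodes cyclin G1, ranged from 0 to 646 CPM in high cells with a median of 77.2, and from 1.90 to 181 in low cells with a median of 27.04. Its log2 fold change was 1.38 (SE 0.47), with an unadjusted p of 0.00399 and an adjusted p of 0.297. Pmaip1, which encodes the pro-apoptotic protein Noxa, had medians of 27.6 and 3.70 CPM in high and low cells and was counted in 29 and 17 of them (log2 fold change 1.76, adjusted p = 0.403). Apaf1, a scaffold of the apoptosome, had medians of 4.50 and 0 CPM (log2 fold change 2.29, adjusted p = 0.370). In Ccng1, Pmaip1 and Apaf1 the highest cell was Mock_3, and without it the log2 fold changes were 1.203, 1.51 and 1.92.

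Gtse1 and Psrc1, p53-linked genes whose products act on microtubules and in G2 and mitosis, had median levels of 243 and 79.3 CPM, and of 114 and 27.6 CPM, in high and low cells. Their log2 fold changes were 1.43 (adjusted p = 0.371) and 1.46 (adjusted p = 0.462). Trp53, which encodes p53 itself, was counted in every cell, with a median of 1522 CPM in high and 1413 CPM in low cells (log2 fold change 0.14, SE 0.20, adjusted p = 0.940), and without the 3 cells that stood apart its log2 fold change was 0.09. Mdm2, the p53-induced ligase that degrades p53, had nearly equal medians of 40.5 and 38.96 CPM (log2 fold change 0.53, SE 0.72, adjusted p = 0.937). Its highest value, 1067 CPM, was in Mock_3, and its log2 fold change was 0.13 without that cell and 0.57 without the 3 cells that stood apart. The p53 list thus lay mostly above 0 in mock cells, while Trp53 and Mdm2 had nearly the same medians in both groups.

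Since p21 acts on the cell cycle, cell cycle genes were examined next. None of the members of these lists passed the threshold with edgeR or DESeq2, and about as many members lay above as below 0. In the DNA replication list 15 of 32 members were above 0 (median log2 fold change -0.03), in the mitosis list 15 of 30 (median 0.01), and in the list of G1 cyclins, kinases and E2F factors 10 of 21 (median -0.02). No member of these lists had an unadjusted p below 0.05, nor did any of the 35 tested cell cycle markers named by the study, of which 15 were above 0. Cdt1, a licensing factor, came nearest, with medians of 102 and 31.7 CPM in high and low cells (log2 fold change 1.02, SE 0.53, adjusted p = 0.581).

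Of other brakes on the cell cycle, 4 of 10 tested members were above 0, and none passed the threshold. The retinoblastoma gene Rb1 had a log2 fold change of -2.37 (SE 1.04, adjusted p = 0.462). Cdkn2b, which encodes p15, had one of 5.18 (SE 2.50, adjusted p = 0.530), and its highest value of 437 CPM was in Mock_3 against 80.5 in the next cell. Without Mock_3 the log2 fold change was 3.42. Lats2 and Rbl2, brakes that like Cdkn1a are on the study's list of miR-294 targets, had log2 fold changes of -0.73 (SE 0.89, adjusted p = 0.928) and -0.09 (SE 1.04, adjusted p = 0.997). That of Rbl2 was 0.03 without the 3 cells that stood apart. Of all 491 tested genes of that list, 245 were above 0, and an unadjusted p below 0.05 was found for 19 on the higher and 19 on the lower side, against 4.31% and 4.6% of all genes. None passed the threshold with edgeR. DESeq2 called 2 higher and 2 lower, where it called 0.384% of all genes higher and 0.411% lower.

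The phase of each cell was predicted from its mRNAs with cyclone, after Cdkn1a had been removed from the table. Of the high cells 13 were placed in G1, 11 in S and 6 in G2/M, and of the low cells 11, 17 and 2. The difference in phases did not pass the test (Fisher's exact test, two-sided, p = 0.191). Of the 20 cells with the most Cdkn1a, 8 were in G1, 6 in S and 6 in G2/M, and of the 20 with the least, 7 were in G1, 13 in S and 0 in G2/M (Fisher's exact test, two-sided, p = 0.0111). The median level of Cdkn1a was 146 CPM in the 24 cells placed in G1, 110 CPM in the 28 in S and 274 CPM in the 8 in G2/M, and Mock_7, the cell with the highest Cdkn1a, was placed in G2/M. With phase as a covariate, 4 genes were higher and 3 lower in high cells.

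**Figure D3:**
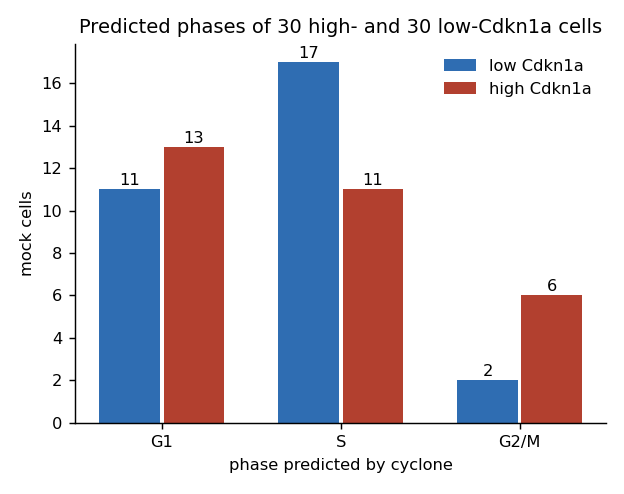
Number of mock cells, on the vertical axis, placed by cyclone in G1, S and G2/M among the 30 high-Cdkn1a (red) and 30 low-Cdkn1a (blue) cells. G1 held 13 high and 11 low cells, S 11 and 17, and G2/M 6 and 2.

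The mitochondrially encoded mRNAs were the list with the most uniform values. All 13, which encode subunits of the respiratory chain and ATP synthase, had log2 fold changes below 0 (against 48.6% of all genes), with a median of -0.69 (-0.34 without the 3 cells that stood apart), and 7 had an unadjusted p below 0.05 (against 4.6% of all genes). None passed the threshold with edgeR or DESeq2. They are transcribed together, so they are not independent of each other. mt-Nd5 had a median of 960 CPM in high and 1596 CPM in low cells (log2 fold change -0.79, SE 0.28, adjusted p = 0.316), and mt-Nd1 medians of 2948 and 4409 CPM (log2 fold change -0.74, SE 0.27, adjusted p = 0.320). The highest values of mt-Nd1 were in Mock_35 and Mock_96, and without the 3 cells that stood apart its log2 fold change was -0.396.

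The share of all counts that came from the whole mitochondrial genome averaged 3.20 ± 2.21% (SD, n = 30) in high cells, with a range of 0.00602 to 9.92% and a median of 2.43%. In low cells it averaged 4.93 ± 2.96% (SD, n = 30), with a range of 1.05 to 15.8% and a median of 4.04%. The groups overlapped widely, and the difference of -1.73 percentage points passed the test (two-sided permutation test, p = 0.0104, adjusted over 4 measures 0.0418). Without the 3 cells that stood apart it was -0.997 percentage points and no longer passed (p = 0.0622), and 2 of the 13 genes then had an unadjusted p below 0.05, although all 13 remained below 0. With this share as a covariate, 0 genes were higher and 3 lower in high cells. The part of the mitochondrial share in the other results was not tested further.

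**Figure D4:**
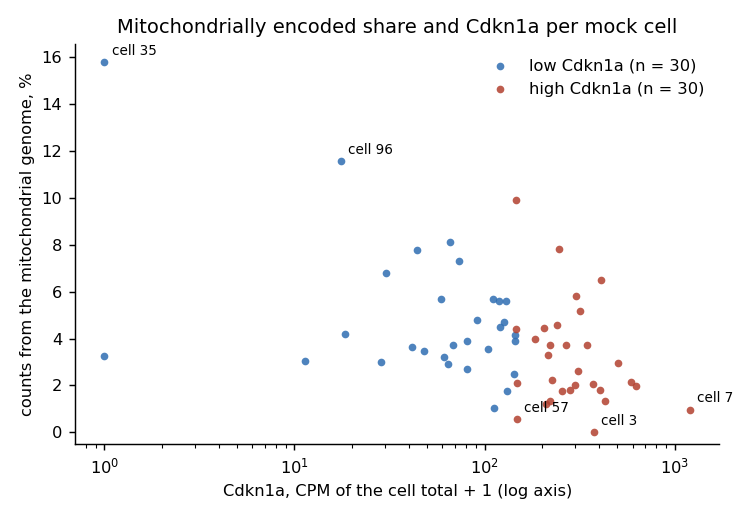
Share of counts from the whole mitochondrial genome, in percent, against Cdkn1a, as CPM plus 1 on a log axis, in the 60 mock cells. Each point is 1 cell, red for high and blue for low Cdkn1a, and 5 cells named in the text are marked. Cells with the highest shares, at 15.8% and 11.6%, lay at the low end of Cdkn1a, and the cell with the lowest share, at 0.00602%, was a high cell.

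Genes of epithelial cells, annexins and the cytoskeleton were mostly above 0, and their largest values came from a single cell. Of 27 tested members 23 had a log2 fold change above 0 (median 0.45), against 51.1% of all genes. None passed the threshold, and 3 on the higher side had an unadjusted p below 0.05, against 4.31% of all genes. These were the keratin genes Krt18 and Krt8, which encode intermediate filaments of simple epithelia, and the annexin gene Anxa1. DESeq2 called Krt18 alone. Krt18 was at 0 at the median of both groups, and its highest value was 3227 CPM in Mock_3 against 506 in Mock_18 and 84.96 in the highest low cell. Mock_3 also held the highest Krt8, at 2380 CPM, and the highest Anxa1, at 3705 CPM. Without Mock_3 the log2 fold changes of Krt18, Krt8 and Anxa1 went from 5.03 to 2.73, from 1.65 to 1.03 and from 2.13 to 0.45. None of the 27 then had an unadjusted p below 0.05, and 20 were above 0.

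Of 22 tested pluripotency genes, 13 were above 0 (median 0.16), and 0 passed the threshold. Dppa5a, a marker of naive ESCs, had medians of 2345 and 1817 CPM in high and low cells (log2 fold change 0.41, SE 0.19, adjusted p = 0.500). Dppa3, which encodes the maternal factor Stella, was counted in 4 high cells and in no low cell, with 300 counts that lay mostly in Mock_55 (adjusted p = 0.297). The orphan receptor gene Nr5a2 was counted in 13 high and 19 low cells (log2 fold change -1.91, SE 0.92, adjusted p = 0.530).

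Markers of other states were sparse in both groups. Of the two-cell-like list, genes of a rare state that resembles the early embryo, Zscan4b was counted in 0 high and 2 low cells (27 counts). The summed level of that list was 0 at the median of both groups and reached 7.30 CPM in high and 239 CPM in low cells. Among 15 fibroblast markers, which would mark feeder cells, 8 were at 0 in all mock cells, and the sum of the list was 0 at the median and reached 130 CPM in high and 56.5 CPM in low cells. For trophoblast markers the summed level had medians of 20.3 and 17.6 CPM, and for primitive endoderm markers 757 and 628 CPM. Sparc, the main contributor to the latter, is also made by ESCs and had medians of 751 and 621 CPM (log2 fold change 0.59, SE 0.25, adjusted p = 0.440).

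Stress and silencing genes were examined last. None of the members of the heat shock, integrated stress response, apoptosis regulator or immediate early lists passed the threshold with edgeR or DESeq2. Of the heat shock list 5 of 11 tested members were above 0 (median log2 fold change -0.12), against 51.1% of all genes. Among apoptosis regulators 6 of 18 were above 0 (median -0.30), and among immediate early genes 7 of 11 (median 0.18). Hspb1, a small heat shock protein gene, had medians of 75.4 and 39.98 CPM (log2 fold change 0.65, SE 0.33, adjusted p = 0.560), and its log2 fold change was 0.99 without the 3 cells that stood apart. Of the integrated stress response list 13 of 22 members were above 0. Chac1, which encodes an enzyme that degrades glutathione, had the smallest p of that list, and was counted in 0 high and 3 low cells (unadjusted p = 0.00565, adjusted p = 0.312). Trib3, a target of the stress factor Chop, was counted in 6 high and 5 low cells (log2 fold change 4.32, SE 2.00, unadjusted p = 0.0326, adjusted p = 0.500). In the miRNA pathway list 9 of 13 tested members were above 0 (median log2 fold change 0.07), and the 2 of smallest p were below 0. Of these, Tnrc6a, which encodes a GW182 protein of the silencing complex, had medians of 38.03 CPM in high and 73.0 CPM in low cells (log2 fold change -1.44, SE 0.42, adjusted p = 0.210), and DESeq2 called it. Its highest value was in Mock_96, and its log2 fold change was -1.21 without the 3 cells that stood apart. Dgcr8 had medians of 4.35 and 14.7 CPM (log2 fold change -1.50, SE 0.64, adjusted p = 0.450).

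None of the 11 tested genes that start within 500 kb of Cdkn1a on chromosome 17 passed the threshold. The largest difference by p was in Srsf3, a splicing factor gene whose start lies at -58.3 kb from that of Cdkn1a, with medians of 653 CPM in high and 830 CPM in low cells (log2 fold change -0.51, SE 0.20, adjusted p = 0.367). The 5 genes that followed the level of Cdkn1a most closely over the 60 cells, by Spearman's rho, were Ckb (0.584), Pgls (0.543), Reep5 (0.508), Ubxn1 (0.499) and Gstp1 (0.489). Pgls encodes an enzyme of the pentose phosphate pathway and Gstp1 a glutathione transferase. The cells share a circuit, and totals enter both values of each pair. None of the 4 after Ckb passed the threshold in the split, with adjusted p between 0.244 and 0.570.

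The same split within the other conditions used cells that the mock comparison did not. Each condition had its own circuit, so a difference between conditions cannot be told apart from one between circuits. The splits also lay at unlike levels of Cdkn1a. High miR-294 cells had a median of 63.6 CPM, and low mock cells one of 69.7 CPM. In let-7 cells the medians were 328 CPM in high and 65.0 CPM in low cells. In let-7 cells 25 genes were higher (0.224% of the genes tested) and 26 lower (0.232%) in cells above their own Cdkn1a median. In miR-294 cells 2 were higher (0.0179%) and 1 lower (0.00894%), and in WT cells 0 were higher and 1 lower (0.00894%) at the adjusted threshold, with 430 higher (3.84%) and 496 lower (4.43%) at an unadjusted p below 0.05. Of the 10 genes called in mock cells, 6 had the same sign in let-7 cells, 3 in miR-294 cells and 7 in WT cells. With the 3 pseudogenes that share reads counted once, these numbers were 4, 3 and 5 of 8. Of the 997 genes with an unadjusted p below 0.05 in mock cells, 54.96%, 51.7% and 52.4% had the same sign in these conditions, against 52.8%, 48.7% and 49.6% of all genes.

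Ckb was above 0 in the let-7 split (log2 fold change 0.65, unadjusted p = 0.0457, adjusted p = 0.652) and below 0 in the miR-294 split (-0.39, unadjusted p = 0.0588). The split of Ckb differed between mock and miR-294 cells by 1.34 on the log2 scale (adjusted p = 0.0375), and by 0.29 between mock and let-7 cells (adjusted p = 0.939). For Cox6a1 there was a difference of 0.98 between mock and miR-294 cells (adjusted p = 0.0375). Without the 3 cells that stood apart the difference from miR-294 cells was 1.30 for Ckb (adjusted p = 0.0668) and 0.91 for Cox6a1, which then did not pass (adjusted p = 0.109). In the whole table, 26 genes had a larger and 45 a smaller log2 fold change in mock than in let-7 cells at the threshold (0.232% and 0.402%), and 15 and 30 in mock than in miR-294 cells (0.134% and 0.268%). Without the 3 cells that stood apart, 50 genes in all differed from let-7 and 16 from miR-294 cells.

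The gene lists were set side by side in all conditions. The p53 list had 23 of 31 members above 0 in let-7 cells (median 0.22), 15 in miR-294 cells (median -0.01) and 23 in WT cells (median 0.63). Of all genes, 51.3% were above 0 in let-7 cells, 53% in miR-294 cells and 47.1% in WT cells. The mitochondrially encoded genes, all 13 below 0 in mock cells, had 12 above 0 in let-7 cells (median 0.27) and 13 above 0 in miR-294 cells (median 0.58), and 2 above 0 in WT cells. For mt-Nd5 and mt-Nd1 the difference from the miR-294 split was -1.09 and -1.27 on the log2 scale, which did not pass the threshold (adjusted p = 0.210 and 0.120). Mitosis genes, balanced in mock cells, had 25 of 30 above 0 in both let-7 and miR-294 cells (medians 0.62 and 0.37), and 9 in WT cells.

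**Figure D5:**
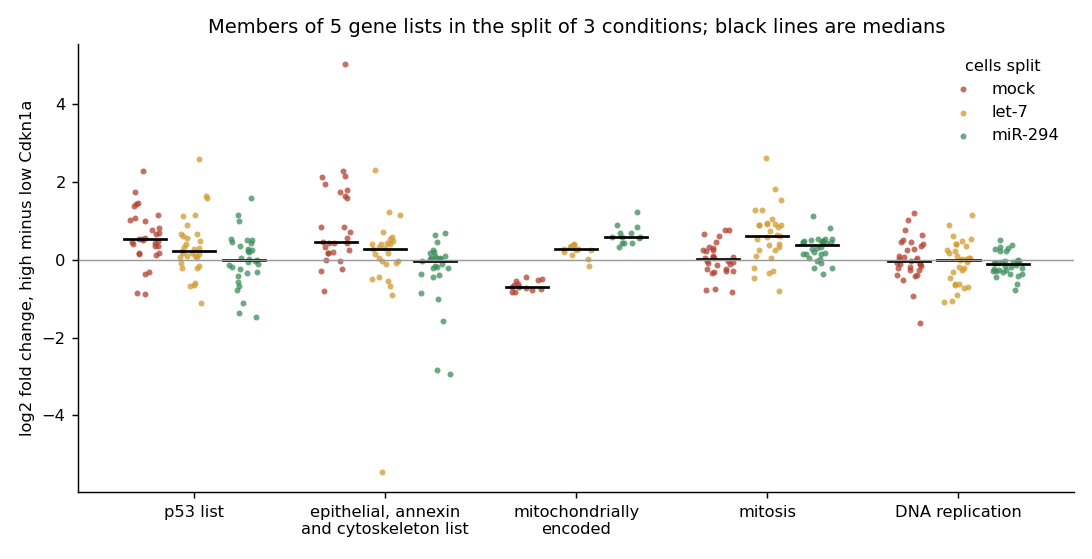
Log2 fold change between cells above and at or below the Cdkn1a median of their own condition, for each tested member of 5 gene lists, in mock, let-7 and miR-294 Dgcr8-/- cells. Each point is 1 gene and black lines are medians. The p53 list has its median at 0.53 in mock cells, and the mitochondrially encoded genes have theirs at -0.69 in mock (-0.34 without the 3 cells that stood apart), 0.27 in let-7 and 0.58 in miR-294 cells.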

How the data were processed

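Single-cell mRNA libraries were made by the authors on Fluidigm C1 circuits with Nextera XT, and the authors quantified them with RSEM 1.2.19 (version per the submitters' processing notes) on Gencode mouse M4, an annotation of GRCm38. They left out cells with few reads or low diversity. They also left out cells whose mRNAs gave no evidence that targets of the mimic were lowered. Only let-7 and miR-294 cells were removed in that step. They deposited an expected count (estimated, not normalized) and an FPKM value (normalized for length and depth) per gene and run. The deposited FPKM values were not used. Positions come from Gencode M21, also on GRCm38.

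The 2 runs that some cells had were summed and rounded. Genes whose counts averaged 5 or more over the cells of all conditions were tested with edgeR 4.0.16 (quasi-likelihood, TMM, gene-wise dispersions, quasi-dispersion held at 1 or above, Benjamini-Hochberg adjusted p below 0.1). The study's methods used a Bayesian single-cell test, which was not repeated. DESeq2 1.42.0 was an alternative. Fold changes of genes with no count in a group are bounds with 3 counts over the group as the floor. Cyclone came from scran 1.30.0. Permutation tests drew 100000 resamples. On simulated data the share of false calls was above the nominal threshold, and most changes of small size were not called.

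Named genes were the 12 of smallest p on either side, the called members and 2 of smallest p of each list, 5 fixed genes (Trp53, Mdm2, Ccng1, Rbl2, Lats2), neighbours within 500 kb and the 5 nearest to Cdkn1a by rho. Gtse1, Pmaip1, Psrc1, Anxa1 and Nr5a2 were named after their values were seen. The members and lists were chosen with earlier results of these data known. Intervals and floors cover counting error only.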

Additional observations from a re-analysis of the deposited data

Results flagged for a closer look

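For 17 of the 88 named genes, the difference between high and low cells was not the same in mock cells as in another condition, by a test of that difference across all genes (edgeR's quasi-likelihood test of the interaction, Benjamini-Hochberg adjusted p below 0.1). Of all 11185 genes tested, 0.232% had a larger and 0.402% a smaller value in mock than in let-7 cells. Against miR-294 cells these shares were 0.134% and 0.268%. Each value is the log2 fold change of high over low cells in mock cells minus that in the other condition. Condition and circuit cannot be told apart in these values, and each condition was split at its own Cdkn1a median. Most of the 17 were named for their small p in the mock split, and the same mock values enter each difference. Their number is therefore not a result about these genes. Of the 19 differences below, 10 passed the threshold again and 9 did not without Mock_3, Mock_96 and Mock_35, which stood apart from the other mock cells.

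Against let-7 cells the difference was -8.61 for Susd1 (adjusted p = 0.0275), 8.15 for Zdhhc7 (0.0987), -3.08 for Zfp935 (0.0843), -4.39 for Atp13a2 (0.00438) and 3.41 for Emilin1 (0.00720). It was -2.95 for Zfp976 (0.0129), -3.93 for Pirb (0.0275), -4.03 for Paf1 (0.0564), -7.43 for Suv39h1 (0.0895) and -6.28 for Nr5a2 (0.00438). Paf1, a subunit of a complex that travels with RNA polymerase II, and Suv39h1, a histone H3K9 methyltransferase, are on the study's list of miR-294 targets. Zdhhc7 had no count in low mock cells, so its difference is a fitted value that depends on the prior count and is neither a size nor a bound. Pirb rested on Mock_96, and its difference was -2.06 without the 3 cells (adjusted p = 0.431). Zdhhc7 no longer passed without them (adjusted p = 0.126). The log2 fold change of Nr5a2, -1.91 in mock cells, was 4.35 in let-7 cells.

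Against miR-294 cells the difference was 1.34 for Ckb (adjusted p = 0.0375) and 0.98 for Cox6a1 (0.0375), the 2 of these genes with counts in all mock cells. It was -7.23 for Susd1 (0.0625), 9.31 for each of Gm7336, Gm10359 and Gm12671, which share their reads (0.0650), -8.57 for Dpp6 (0.0940), -2.91 for Gm37105 (0.0168) and -3.41 for Pirb (0.0482). Dpp6 had no count in high mock cells, so its value is likewise a fitted one and no size or bound. Gm37105 and Pirb rested on Mock_96, and their differences were -1.71 (adjusted p = 0.260) and -1.58 (adjusted p = 0.708) without the 3 cells. Cox6a1 (adjusted p = 0.109), Dpp6 (0.114) and the pseudogenes (0.114) also no longer passed without them, whereas Ckb (0.0668) and Susd1 (0.0697) did.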

How the results depend on the processing

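Against 5 genes higher and 5 lower in high cells, the default trended dispersions of edgeR gave 256 and 234, and DESeq2 43 and 46. The split on TMM-effective library sizes gave 12 and 13, and the 20 cells with the most against the 20 with the least Cdkn1a 11 and 10. Without the 3 cells nearest the median on either side, the split gave 9 and 18. With log2(Cdkn1a CPM + 1) tested in place of the split, 35 genes rose and 55 fell with Cdkn1a. Fewer passed without a filter on low counts (4 and 3), with predicted phase (4 and 3) or the number of runs (1 and 3) as a covariate, and under Holm adjustment (0 and 1). Among alternatives chosen after seeing the data, the mitochondrial share as a covariate gave 0 and 3, leaving the mitochondrially encoded genes out of the split and the test 2 and 2, leaving out the cell with the highest mitochondrial share 5 and 8, leaving out the 2 cells with no Cdkn1a count 5 and 8, and keeping genes counted in at least 10 mock cells 8 and 7. Leaving out each cell in turn gave 4 to 8 higher and 4 to 12 lower genes. Of the 10 genes called, 2 were called between these groups of 20, 2 with log2(Cdkn1a CPM + 1) in place of the split and 8 by DESeq2. The cause was not tested.

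With trended dispersions the split in let-7 cells gave 275 and 217 genes, in miR-294 cells 281 and 218, and in WT cells 0 lower, and the interactions gave 565 genes against let-7 cells and 547 against miR-294 cells. Without the 3 cells that stood apart, chosen after seeing the data, 16 genes in place of 45 differed from miR-294 cells. With log2(Cdkn1a CPM + 1) in place of the split, 14 genes fell with Cdkn1a in let-7 cells. In miR-294 cells 6 rose and 2 fell, and in WT cells 25 rose and 37 fell. The test of all phases together passed between the groups of 20, where the share of G1 cells differed by 5 percentage points. In the main split that share differed by 6.67 percentage points. The mitochondrial share differed by -0.997 percentage points without the 3 cells that stood apart and no longer passed.

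For the 88 named genes under 22 alternatives, 1761 of 1912 values kept their side of the threshold, 59 lost and 92 gained a call, and 0 values of called genes changed sign. Under all alternatives 24 to 29 members of the p53 list and 19 to 24 of the epithelial list were above 0, and all 13 mitochondrially encoded genes, where tested, were below 0. No paired analysis was possible because the replicate numbers in the labels mark sequencing runs of the same cell, which were summed. A gene with a few counts in few cells cannot be told from one that was missed in the other cells at this depth.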

Other observations

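In a principal component analysis of the mock cells over log2(CPM + 1) of all genes tested, added after the data were seen, neither of the first components separated the groups. PC1 held 4.18% of the variance (two-sided permutation test, adjusted p = 0.862) and PC2 3.40% (adjusted p = 0.240). PC3, with 3.12% of the variance, had a mean of -16.3 ± 43.9 (SD, n = 30) in high and 16.3 ± 27.4 (SD, n = 30) in low cells (adjusted p = 0.00102). Mock_3 had the lowest value of PC3, at -185. Without Mock_3, Mock_96 and Mock_35 the means of the same scores were -10.5 and 13.4 (two-sided permutation test, p = 0.00236). The components were not recomputed without these cells, so whether such a component stands without them was not tested. Over the mock cells PC3 had a correlation of 0.593 with the share of mitochondrially encoded counts (n = 60), and of 0.566 without these 3 cells. The measures share libraries, and the mitochondrially encoded genes enter both.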
